A study of Homo sapiens with 14 samples.

Results

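The APOBEC3 cytidine deaminases are a family of 7 human genes, APOBEC3A, APOBEC3B, APOBEC3C, APOBEC3D, APOBEC3F, APOBEC3G and APOBEC3H, and they are described here in cells treated with an aurora kinase inhibitor. All genes of the family were taken as members by their symbols, whatever their values, and all 7 are listed among the 26732 genes that both count tables hold. Their RNA levels come from A549 and H1792 cells, established human lung adenocarcinoma lines, kept for 48 h with 0.1 µM AMG900, which inhibits all aurora kinases, or with DMSO, its solvent. A549 has 4 libraries with DMSO and 4 with AMG900, and H1792 has 3 of each. A549 was grown in DMEM and H1792 in RPMI 1640, the lines differ in sequencing depth and were counted into separate tables, and all of this goes with the line and cannot be told apart from it. The labels describe 3 dishes per treatment but list 4 libraries per treatment for A549. Nothing else ties the libraries to separate experiments, so the p-values measure the spread between these libraries, which may be partly technical.

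APOBEC3 enzymes convert cytosine to uracil, mainly in single-stranded DNA. They restrict retroviruses, DNA viruses and mobile elements as part of innate immunity, and many of them are inducible by interferon or by NF-κB signalling. APOBEC3A and APOBEC3B can reach nuclear DNA and are regarded as the main sources of the APOBEC mutation pattern in human tumours, lung adenocarcinoma included. APOBEC3B is also under the control of cell-cycle regulators of the B-MYB, E2F and DREAM group, whereas APOBEC3G, APOBEC3F, APOBEC3D and APOBEC3H are best known for acting on HIV in T cells.

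The 7 genes lie side by side on the plus strand of chromosome 22 between the genes CBX6 and CBX7. In GRCh37 coordinates, APOBEC3A spans chr22:39348746-39359189, APOBEC3B chr22:39378352-39388809, APOBEC3C chr22:39410262-39416357 and APOBEC3D chr22:39417118-39429282. They are followed by APOBEC3F at chr22:39436609-39451977, APOBEC3G at chr22:39473072-39483748 and APOBEC3H at chr22:39493229-39500072. The coding stretches around the catalytic zinc-binding motif are printed because they show how the genes are related and how much alike their reads can be. Capitals mark the proline codon and the cysteine codons of the motif, and the sequences were read 5′ to 3′ from the GENCODE transcripts on GRCh37. APOBEC3A, APOBEC3C and APOBEC3H hold 1 such motif, and APOBEC3B, APOBEC3D, APOBEC3F and APOBEC3G hold 2, the first in exon 3 and the second in exon 6.
APOBEC3A, exon 3, chr22:39357506-39357538: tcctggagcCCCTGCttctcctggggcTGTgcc
APOBEC3B, second motif, chr22:39387451-39387483: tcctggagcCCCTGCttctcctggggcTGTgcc
APOBEC3B, first motif, chr22:39381919-39381945: tcctggaccCCCTGCccggacTGTgtg
APOBEC3F, first motif, chr22:39441048-39441074: tcctggaccCCCTGCccggacTGTgtg
APOBEC3F, second motif, chr22:39448181-39448207: tcttggagcCCTTGCccagagTGTgca
APOBEC3D, second motif, chr22:39427801-39427827: tcttggagcCCTTGCccagagTGTgca
APOBEC3D, first motif, chr22:39421177-39421203: tcatggaacCCCTGCctgcccTGTgtg
APOBEC3C, exon 3, chr22:39413873-39413899: tcttggagcCCTTGCccagacTGTgca
APOBEC3G, first motif, chr22:39477043-39477069: tcctggagcCCCTGCacaaagTGTaca
APOBEC3G, second motif, chr22:39482398-39482424: tcctggagcCCCTGCttcagcTGTgcc
APOBEC3H, exon 3, chr22:39497332-39497358: acgtggagcCCCTGCtcctccTGTgcc

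The APOBEC3A stretch is identical to the second one of APOBEC3B, the first APOBEC3B stretch to the first of APOBEC3F, and the second APOBEC3F stretch to the second of APOBEC3D. Over whole transcripts, 34.6% of the 50-base stretches of APOBEC3B also occur in another member, mostly in APOBEC3A. The share was 24.1% for APOBEC3A, mostly with APOBEC3B, 15.3% for APOBEC3D, 13.0% for APOBEC3G, 11.0% for APOBEC3F and 1.23% for APOBEC3C. APOBEC3H shares no 50-base stretch with the others. The setting by which reads matching more than 1 gene were counted is not given in the sources used here. The counts of APOBEC3A and APOBEC3B, and of APOBEC3D, APOBEC3F and APOBEC3G, are therefore uncertain where reads fall in shared sequence, while those of APOBEC3C and APOBEC3H rest almost wholly on their own.

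**Figure D1:**
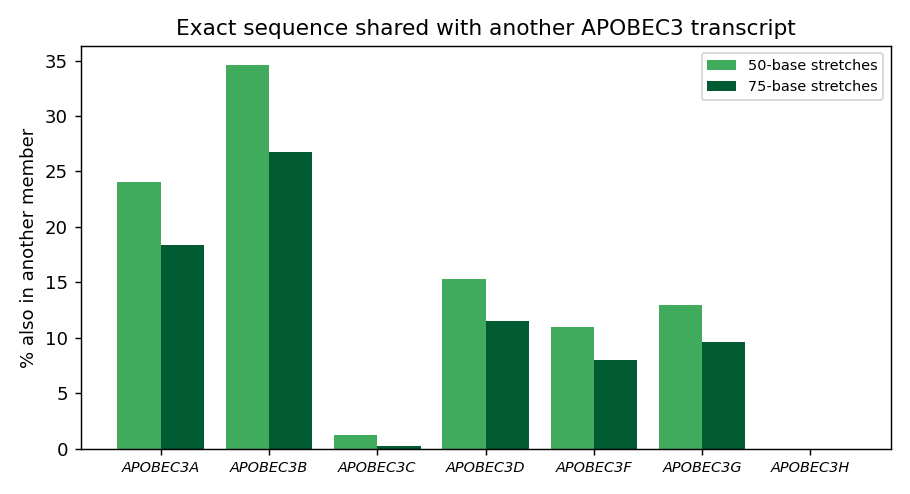
Share of each APOBEC3 transcript, in percent of all stretches of the given length, that also occurs in another APOBEC3 transcript. Light bars stand for 50-base and dark bars for 75-base stretches, and the shares run from 0 in APOBEC3H to 34.6% in APOBEC3B.

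The libraries held 4254644 to 18962883 counts in A549 and 42760874 to 79902934 in H1792, of which 269 to 2265 and 5512 to 12095 fell on the 7 genes. A549 DMSO replicate 1 was the smallest library. Levels are given as CPM, the counts of a gene scaled to a common library size. The epithelial keratin KRT8 was at a mean of 3200 CPM in A549 and 456 CPM in H1792 with DMSO, whereas EPCAM was at 0.301 CPM in A549 and CDH1 at 0.681 CPM in H1792. Of the immune cell markers, the pan-leukocyte gene PTPRC reached at most 4 counts and the T cell genes CD3D, CD3E and CD3G at most 1 in any library. CD8A, also a T cell marker, had 6 to 25 counts with DMSO and 25 to 47 with AMG900 in A549 (1.64 ± 0.415 and 2.34 ± 0.391 CPM), and 0 to 13 and 9 to 43 counts in H1792. The summed level of the 12 immune markers was 6.88 to 10.2 CPM with DMSO and 23.1 to 24.3 CPM with AMG900 in A549, and 2.06 to 2.64 and 3.78 to 4.51 CPM in H1792. In A549, 5 of these 12 markers were at 0 in every DMSO library and 4 in every AMG900 library. CD14, ITGAM and CD79A rose with AMG900 in A549, as did the 6 epithelial markers tested of 7, whose summed level was 7538 to 9797 CPM with DMSO and 10710 to 12630 CPM with AMG900. The part of these markers in the results below was not tested.

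APOBEC3C and APOBEC3B made up most APOBEC3 RNA in both lines with DMSO. To compare genes, CPM values were divided by transcript length (CPM per kb). In A549 with DMSO, the level was 14.7 ± 2.65 CPM per kb for APOBEC3C (SD, n = 4) and 11.6 ± 1.49 for APOBEC3B, with overlapping libraries, followed by 1.67 ± 0.361 for APOBEC3F. APOBEC3A (0.695 ± 0.735 CPM per kb), APOBEC3D (0.321 ± 0.0876), APOBEC3H (0.126 ± 0.117) and APOBEC3G (0.113 ± 0.112) followed, and from APOBEC3F onwards each overlapped the next. In H1792 with DMSO the order of the leading genes was the other way round, with 34.8 ± 1.67 CPM per kb for APOBEC3B (SD, n = 3) and 21.5 ± 0.969 for APOBEC3C, and their libraries did not overlap. APOBEC3F (2.62 ± 0.205 CPM per kb), APOBEC3A (2.06 ± 0.360) and APOBEC3D (1.56 ± 0.0884) came next, each just apart from the one before it, then APOBEC3G (0.304 ± 0.0498), and APOBEC3H was last at 0.0126 ± 0.0116.

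**Figure D2:**
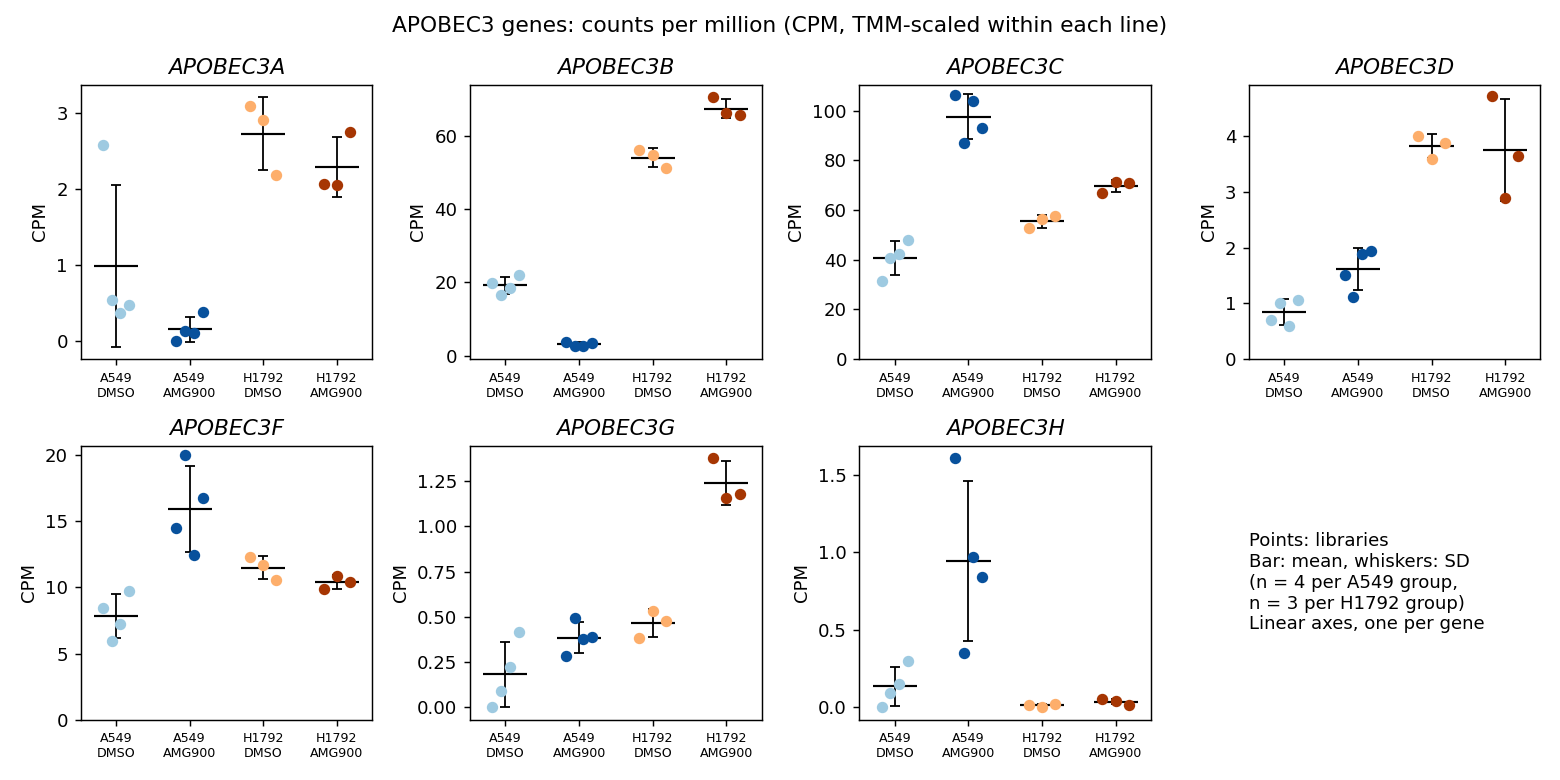
CPM of each APOBEC3 gene in every library, on a linear axis of its own for each gene. Points are libraries, horizontal lines are group means and whiskers are SD (n = 4 in A549, n = 3 in H1792), and APOBEC3B is low in the 4 A549 libraries with AMG900 and high in the 3 such H1792 libraries.

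Between the lines with DMSO, APOBEC3B, APOBEC3C, APOBEC3D and APOBEC3F were higher in H1792 at an FDR of 0.01. With APOBEC3A and APOBEC3H, 6 of 7 members were called, 5 higher and 1 lower, but APOBEC3A, APOBEC3G and APOBEC3H passed the filter only through groups in which they are high, so the count supports nothing, and 66.1% of all 14769 genes tested were called (34.2% higher and 31.9% lower). The fit took all 14 libraries, with TMM scaling, the edgeR quasi-likelihood test and Benjamini-Hochberg adjustment, and the adjusted p-values and SE below are from it. APOBEC3B was 3.00-fold higher in H1792 (log2 1.58, SE 0.107, adjusted p = 8.46e-11) and APOBEC3D was 4.67-fold higher (log2 2.22, SE 0.273, adjusted p = 5.05e-07). APOBEC3C was 1.43-fold higher (log2 0.52, SE 0.103, adjusted p = 0.000167) and APOBEC3F 1.57-fold higher (log2 0.65, SE 0.171, adjusted p = 0.0022). In none of these 4 genes did the libraries of the lines overlap. The share of all genes without overlap is not given here, so that count adds no support. For APOBEC3F the call was lost without A549 DMSO replicate 2 (log2 0.52, adjusted p = 0.0117).

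For APOBEC3A the fit gave log2 2.03 (SE 0.450, adjusted p = 0.000465), but it entered the fit only through its level in H1792, and the lines overlapped. Its counts were 11, 6, 5 and 8 in the A549 libraries with DMSO and 202, 142 and 96 in H1792. The 11 counts stood in the smallest A549 library, which reached 1.80 CPM per kb, while the other A549 libraries lay between 0.265 and 0.380 and the H1792 libraries between 1.65 and 2.33. For APOBEC3H the fit gave a lower level in H1792 (log2 -3.31, SE 1.03, adjusted p = 0.00704) on counts of 0, 1, 2 and 5 in A549 and 1, 0 and 1 in H1792. It entered the fit only through its level in A549 with AMG900, and it was not called without any 1 of the 3 H1792 DMSO libraries, without A549 DMSO replicate 3 or without A549 DMSO replicate 4 (edgeR, adjusted p = 0.0109 to 0.0821). APOBEC3G, which entered through its level in H1792 with AMG900, had counts of 0, 1, 3 and 7 against 25, 26 and 21 and was not called (log2 1.06, 95% interval 0.04 to 2.09, adjusted p = 0.0568).

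With AMG900 in A549, APOBEC3B fell and APOBEC3C and APOBEC3F rose. APOBEC3B is the nuclear, double-domain deaminase of the family. It measured 19.97, 16.48, 18.54 and 21.96 CPM in the DMSO libraries and 3.68, 2.60, 2.64 and 3.62 CPM in the AMG900 libraries. All AMG900 libraries lay far below all DMSO libraries, a 6.18-fold lower level (log2 -2.63, SE 0.174, adjusted p = 2.1e-08, edgeR quasi-likelihood test). In bulk RNA, fewer cells expressing APOBEC3B and less of its RNA per cell cannot be told apart.

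APOBEC3C, a single-domain deaminase expressed in many tissues, moved the other way. Its level was 31.5, 40.6, 42.2 and 48.0 CPM with DMSO and 106, 86.8, 104 and 93.2 CPM with AMG900, with a wide gap between the groups. That was a 2.36-fold rise (log2 1.24, SE 0.113, adjusted p = 6.3e-07, edgeR quasi-likelihood test). APOBEC3F, a double-domain deaminase that acts on HIV lacking Vif, measured 8.46, 5.92, 7.25 and 9.73 CPM with DMSO and 14.46, 20.01, 12.46 and 16.74 CPM with AMG900. It rose 2.03-fold (log2 1.02, SE 0.188, adjusted p = 0.000467, edgeR quasi-likelihood test) and its groups did not overlap.

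The other members were near the limit of counting in A549. APOBEC3D, a close relative of APOBEC3F, had 3, 11, 8 and 18 counts with DMSO and 16, 16, 35 and 30 with AMG900. In CPM every AMG900 library was above every DMSO library, but the difference was not called by the edgeR quasi-likelihood test (log2 0.90, 95% interval 0.13 to 1.67, adjusted p = 0.0509). APOBEC3H, the most divergent member, had 0, 1, 2 and 5 counts with DMSO and 17, 5, 18 and 13 with AMG900. Its CPM was 0 to 0.297 with DMSO and 0.351 to 1.61 with AMG900, without overlap. It did not pass the filter on low counts, and without that filter edgeR gave log2 2.41 (SE 0.702, adjusted p = 0.00671 over 20076 genes). APOBEC3A had 11, 6, 5 and 8 counts with DMSO and 0, 2, 2 and 6 with AMG900, and without the filter edgeR gave log2 -2.25 (SE 0.803, adjusted p = 0.0281), which missed the threshold. APOBEC3G, the best-known HIV restriction factor of the family, had 0, 1, 3 and 7 counts with DMSO and 3, 7, 7 and 6 with AMG900, and the groups overlapped. In A549, 4 of 7 members were tested, APOBEC3D passing the filter mainly through its AMG900 libraries, and 3 were called, 2 higher and 1 lower, where 35.0% of 13174 genes were called (17.2% higher and 17.8% lower).

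In H1792 the response was smaller for the abundant members, and APOBEC3B did not fall. APOBEC3B measured 56.1, 54.8 and 51.1 CPM with DMSO and 70.4, 66.2 and 65.5 CPM with AMG900. It rose 1.25-fold (log2 0.32, SE 0.0610, adjusted p = 0.00154, edgeR quasi-likelihood test), with no overlap between the groups. APOBEC3C, at 52.6, 56.4 and 57.4 CPM with DMSO and 67.0, 71.1 and 71.1 CPM with AMG900, rose 1.26-fold (log2 0.33, SE 0.0596, adjusted p = 0.00109). Its groups did not overlap either. Both small rises sat near the threshold when a library was left out. APOBEC3B was no longer called without H1792 DMSO replicate 3 (log2 0.28, adjusted p = 0.0138) or without H1792 AMG900 replicate 1 (log2 0.29, adjusted p = 0.0129), and APOBEC3C was not called without H1792 AMG900 replicate 2 (log2 0.31, adjusted p = 0.0103).

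APOBEC3G showed the largest fold in H1792 among the members tested, from a low level. It had 25, 26 and 21 counts with DMSO and 107, 58 and 68 with AMG900, or 0.382, 0.533 and 0.479 CPM against 1.38, 1.16 and 1.18 CPM. All AMG900 libraries were above all DMSO libraries, a 2.68-fold rise (log2 1.42, SE 0.258, adjusted p = 0.00114, edgeR quasi-likelihood test). APOBEC3F measured 12.3, 11.7 and 10.5 CPM with DMSO and 9.89, 10.9 and 10.4 CPM with AMG900. Its groups overlapped, and the difference was not called (log2 -0.15, 95% interval -0.35 to 0.06, adjusted p = 0.206). APOBEC3A measured 3.09, 2.91 and 2.19 CPM with DMSO and 2.07, 2.06 and 2.75 CPM with AMG900 (log2 -0.26, 95% interval -0.68 to 0.16, adjusted p = 0.28), and its groups overlapped. APOBEC3D measured 4.01, 3.59 and 3.88 CPM with DMSO and 4.72, 2.90 and 3.65 CPM with AMG900 (log2 -0.02, 95% interval -0.40 to 0.37, adjusted p = 0.94), with the DMSO libraries inside the range of the AMG900 libraries. APOBEC3H was barely seen, with 1, 0 and 1 counts with DMSO and 4, 2 and 1 with AMG900, and was not tested. Of the 6 members tested, 3 were called, all higher, where 35.1% of 15017 genes were called (16.2% higher and 18.8% lower).

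**Figure D3:**
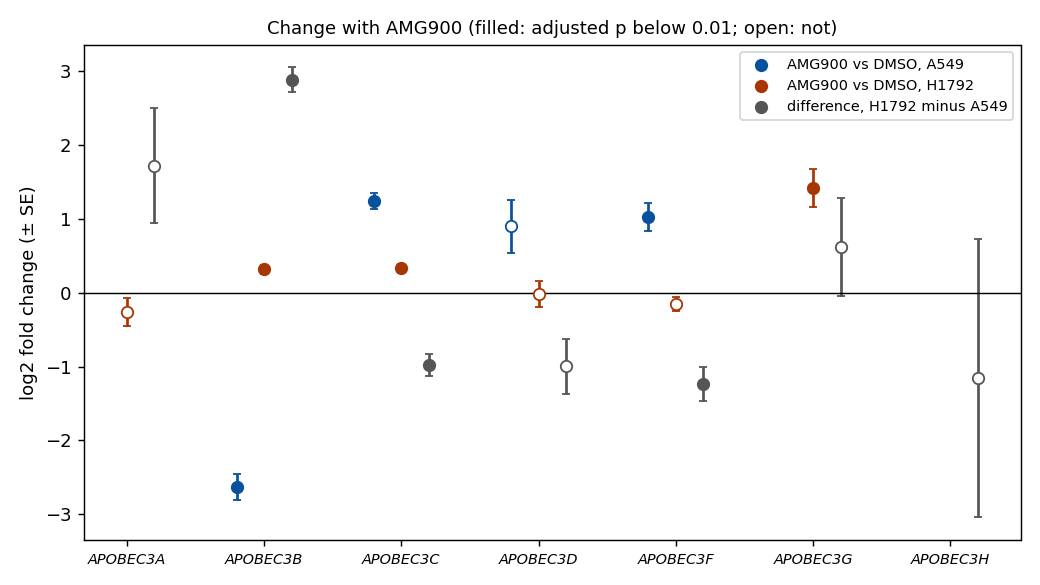
Log2 fold change of each APOBEC3 gene with AMG900 in A549 (blue) and H1792 (red) and the difference of the 2 changes (grey, H1792 minus A549), with SE as whiskers. Filled points passed an FDR of 0.01 and open points did not. APOBEC3B stands at -2.63 in A549 and 0.32 in H1792, and genes that did not pass the filter in a line have no point there.

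The responses of 3 members differed between the lines when the difference itself was tested as an interaction over all 14 libraries, with the difference, H1792 minus A549, above 0 for 1 member and below 0 for 2. Among all genes tested, 14.5% were called in that test, 5.37% with a difference above 0 and 9.17% with one below 0. Of the genes called, 36.9% had a difference above 0, against 48.6% with scaling by total counts and 49.5% with the size factors of DESeq2, while the members called kept their number under both. For APOBEC3B, which fell in A549 and rose slightly in H1792, the difference was log2 2.88 (SE 0.171, adjusted p = 2.22e-10, edgeR quasi-likelihood test). It was log2 -0.98 for APOBEC3C (SE 0.144, adjusted p = 5.2e-05), whose rise was larger in A549. For APOBEC3F it was log2 -1.24 (SE 0.234, adjusted p = 0.000683). For APOBEC3G the difference was not called, and its interval was wide (log2 0.62, 95% interval -0.77 to 2.01, adjusted p = 0.539). Nor was it called for APOBEC3A (log2 1.72, 95% interval 0.08 to 3.36, adjusted p = 0.121), APOBEC3D (log2 -0.995, 95% interval -1.78 to -0.22, adjusted p = 0.0585) or APOBEC3H (log2 -1.15, 95% interval -5.11 to 2.80, adjusted p = 0.706).

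Over the 4 conditions, APOBEC3B was lowest in A549 with AMG900 (1.99 ± 0.383 CPM per kb), then A549 with DMSO (11.6 ± 1.49), H1792 with DMSO (34.8 ± 1.67) and H1792 with AMG900 (43.5 ± 1.65), and no neighbours in this order overlapped. APOBEC3C had another order, from A549 with DMSO (14.7 ± 2.65 CPM per kb) through H1792 with DMSO (21.5 ± 0.969) and H1792 with AMG900 (27.1 ± 0.950) to A549 with AMG900 (37.2 ± 3.18), again with no overlap. APOBEC3F ran from A549 with DMSO (1.67 ± 0.361 CPM per kb) over H1792 with AMG900 (2.37 ± 0.117) and H1792 with DMSO (2.62 ± 0.205) to A549 with AMG900 (3.58 ± 0.748). Its H1792 groups overlapped each other, and H1792 with DMSO overlapped A549 with AMG900 by a small margin.

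The make-up of APOBEC3 RNA differed between treatments in A549, and its sum was higher in each AMG900 library than in any DMSO library of the same line. The summed level of the family was 29.2 ± 3.65 CPM per kb with DMSO and 44.7 ± 3.11 with AMG900 in A549 (SD, n = 4), and 62.8 ± 1.44 and 77.1 ± 0.885 in H1792 (SD, n = 3). In A549, APOBEC3B made up 39.7 ± 3.01% of that sum with DMSO and 4.45 ± 0.726% with AMG900, and APOBEC3C 50.2 ± 5.87% and 83.2 ± 2.08%. In H1792 the share of APOBEC3B was 55.4 ± 1.52% with DMSO and 56.4 ± 1.53% with AMG900, and that of APOBEC3C was 34.2 ± 2.17% and 35.1 ± 1.62%. The shares of these genes in H1792 differed by less than the spread between libraries. With AMG900 in A549, APOBEC3F came second at 8.11 ± 2.26%, above APOBEC3B in CPM per kb in every library, and APOBEC3H reached 2.01 ± 0.982%.

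**Figure D4:**
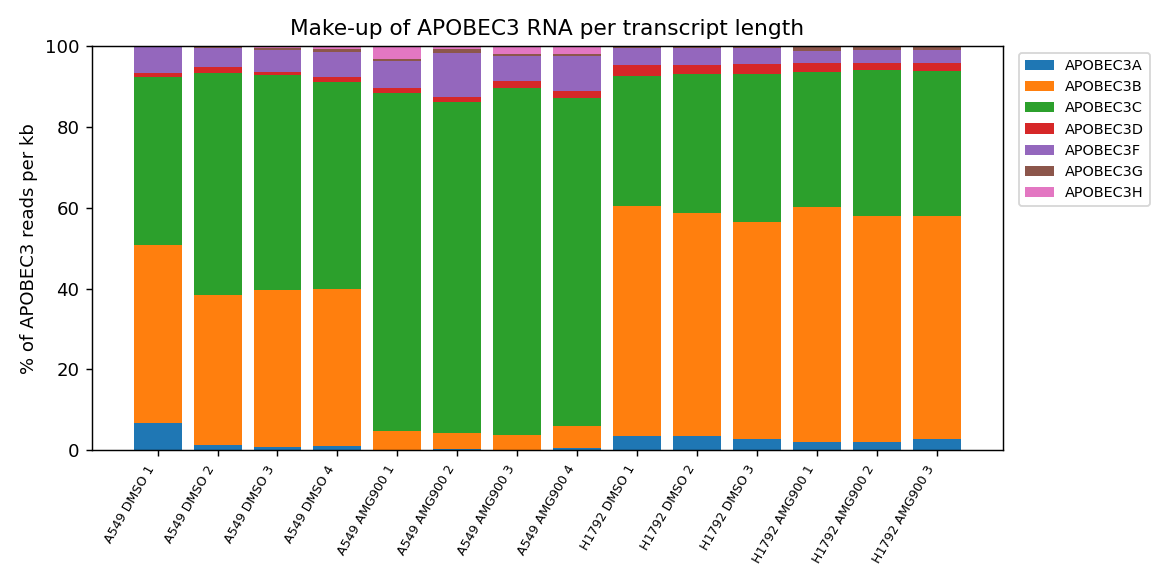
Share of each APOBEC3 gene in the summed APOBEC3 level (CPM per kb), in percent, 1 bar per library. In the 4 A549 libraries with AMG900 the APOBEC3B segment shrinks to 3.64 to 5.25% and APOBEC3C takes 81.3 to 85.9%, whereas the H1792 bars look alike with either treatment.

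Because APOBEC3A and APOBEC3B share sequence, their counts were set against each other. In H1792 there were 2.94 to 5.51 APOBEC3A counts for every 100 APOBEC3B counts. In A549 with DMSO the values were 12.9, 3.31, 2.02 and 2.16, the first being the smallest library, and with AMG900 they were 0, 5.41, 4.08 and 10.7. The counts of APOBEC3A were thus a small part of those of APOBEC3B, and how many of them came from shared sequence was not tested. The fusion gene APOBEC3A_B, which a deletion between both genes makes, had 0 counts in all 14 libraries. It is built from the sequence of both genes, so whether its reads could be counted on it at all is not known, and the 0 says nothing of its expression. The antisense gene APOBEC3B-AS1 had 0 to 2 counts in A549 and 5 to 19 in H1792. The strand setting of the counting is not given in the sources used here, so reads of APOBEC3B and its antisense partner cannot be told apart where they overlap.

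APOBEC1, APOBEC2 and APOBEC4, relatives outside the family, were almost silent. APOBEC2 stayed at or below 1 count in A549 and 9 counts in H1792. APOBEC1 reached 1 count in 1 H1792 library, and APOBEC4 had 0 counts in every library, which allows up to 3 counts. None of these 3 genes passed the filter.

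The uracil that APOBEC3 enzymes leave in DNA is removed by glycosylases and base excision repair. Of 14 genes for uracil and abasic site processing, all were tested in both lines, and 2 were higher and 2 lower with AMG900 in A549, and 2 higher and 4 lower in H1792, which is near the shares of all genes called (35.0% and 35.1%). Their median log2 change was -0.20 in A549 and -0.14 in H1792, beside -0.01 and 0.01 over all genes tested. UNG, the main uracil-DNA glycosylase, fell in both lines, by 1.46 on the log2 scale in A549 (SE 0.0887, adjusted p = 8.16e-09, edgeR) and by 0.89 in H1792 (SE 0.0687, adjusted p = 7.66e-06). The fall of UNG was smaller in H1792 (difference log2 0.49, adjusted p = 0.00333, edgeR). DUT, which removes dUTP from the nucleotide pool, fell by 0.66 in A549 and by 0.57 in H1792 on the log2 scale. SMUG1 (log2 0.41) and MAD2L2 (log2 0.36) rose in A549, and XRCC1 (log2 0.45) and MAD2L2 (log2 0.26) rose in H1792, where REV3L fell by 0.87. In A549 REV3L was at log2 -0.995 and just missed the threshold (adjusted p = 0.0136, edgeR). Its change did not differ between the lines by the interaction test (log2 0.05, adjusted p = 0.949, edgeR).

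Most regulators of the B-MYB, FOXM1, E2F and DREAM group were lower with AMG900 in both lines. Of 16 genes, all tested, 12 were lower and 1 higher in A549, and 10 were lower in H1792, where 6 were not called, beside 35.0% and 35.1% of all genes called in either direction. The median log2 change was -1.05 in A549 and -0.41 in H1792. E2F2 fell by 4.56 on the log2 scale, MYBL2, which encodes B-MYB, by 3.46, and FOXM1 by 3.01 in A549. In H1792 the falls were 0.49 for E2F2, 0.33 for MYBL2 and 0.22 for FOXM1, where APOBEC3B rose. The largest fall of the group in H1792 was in RB1 (log2 -1.57), which was not called in A549 (log2 -1.09, adjusted p = 0.0162, edgeR), and LIN37 was the gene that rose in A549 (log2 0.69). Of all genes tested for the interaction, 5.37% were called with a difference above 0 and 9.17% with one below 0. Of the 16, 7 were called, all with the smaller fall in H1792, among them MYBL2 (log2 3.05, adjusted p = 2.52e-12, edgeR). Their part in the levels of APOBEC3B was not tested.

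Most genes of a list of NF-κB regulators and targets, together with CDKN1A and MDM2, were higher with AMG900 in A549. Of 11 genes, all tested, 7 were higher in A549 and 4 were not called, while in H1792 3 were higher, 1 was lower and 7 were not called. Over all genes 35.0% were called in A549 and 35.1% in H1792, so the H1792 count is near the background. The median log2 change was 1.10 in A549 and 0.15 in H1792. RELB and NFKB2, which form the non-canonical NF-κB dimer, rose in A549 (log2 1.26 and 1.04). In H1792 NFKB2 rose (log2 0.50), RELB was at log2 -0.01 (adjusted p = 0.928, edgeR), and NFKB1 fell by 0.53. MDM2 (log2 1.95) and CDKN1A (log2 1.73), which encodes an inhibitor of cyclin-dependent kinases, rose in A549. In H1792 CDKN1A rose less (log2 0.60) and MDM2 was not called (log2 0.09, adjusted p = 0.477, edgeR). The interaction was called for 8 of the 11, all with a difference below 0, among them NFKB1, which fell in H1792 and stood at log2 -0.00 in A549. In that test, 5.37% of all genes were called with a difference above 0 and 9.17% with one below 0.

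Of 22 interferon-stimulated genes, 20 were tested in A549 with 10 higher and 1 lower, and 21 were tested in H1792 with 5 higher and 2 lower. The H1792 count is near the 35.1% of all genes called there, while 35.0% were called in A549. The median log2 change was 0.79 in A549 and -0.16 in H1792. IRF7 (log2 2.19) and MX1 (log2 1.94) rose most in A549, where OAS3 fell by 0.91. IRF9 (log2 0.97) and IRF7 (log2 0.80) rose most in H1792, where STAT2 fell by 0.35. IRF1 rose in both lines (log2 0.77 and 0.56). Of all genes tested for the interaction, 5.37% were called with a difference above 0 and 9.17% with one below 0. Of the 21, 8 were called, with 7 differences below 0, among them MX1 (log2 -1.65, adjusted p = 0.000206, edgeR). Their part in the levels of the APOBEC3 genes was not tested.

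In A549 the members of the cluster moved in both directions, and the genes next to it were higher or not called. CBX6 and CBX7, which flank the cluster directly, were not called in A549 (log2 0.13 and -0.00, adjusted p = 0.181 and 0.989, edgeR). In H1792 CBX6 fell by 0.36 and CBX7 was not called (log2 -0.11). Of 8 neighbouring genes, all tested, 4 were higher in A549 and 4 not called, and 2 were higher and 1 lower in H1792, where 35.0% and 35.1% of all genes were called. The count in H1792 is near that share. PDGFB rose in both lines (log2 0.91 and 1.24), as did RPL3 (log2 0.23 and 0.25), whereas NPTXR (log2 0.67) and DNAL4 (log2 0.55) rose in A549 and were at log2 -0.01 and 0.08 in H1792. SYNGR1 (log2 0.38 and 0.13) and TAB1 (log2 -0.02 and 0.10) were called in neither line.

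The genes whose levels most resembled each member were found by Pearson's r over the 14 libraries, after the mean of each line was subtracted, among 11501 genes with at least 1 CPM on average in both lines. These values describe the libraries, which share treatment and depth, and carry no test. APOBEC3B was most like GTSE1 (r = 0.995), AURKB (0.993) and HAUS8 (0.991), which act in mitosis, and AURKB encodes a target of AMG900. AURKB fell by 3.21 on the log2 scale in A549 (from 117 ± 11.2 to 12.6 ± 1.69 CPM) and rose by 0.24 in H1792 (from 140 ± 9.90 to 165 ± 3.92 CPM). GTSE1 fell by 3.23 in A549 and was at log2 0.17 in H1792, not called (adjusted p = 0.0221, edgeR). APOBEC3C was most like ICAM1 (0.992), the adhesion molecule induced by NF-κB, UCP2 (0.988) and RETSAT (0.986). All of them rose in both lines, ICAM1 by log2 1.60 in A549 and 0.36 in H1792, UCP2 by 1.10 and 0.33, and RETSAT by 1.07 and 0.29. APOBEC3F was most like CHMP1B (0.975), ORMDL3 (0.970) and SMIM3 (0.956), and APOBEC3G like FBXO25 (0.983), COX7C (0.972) and C22orf46 (0.965). In A549, APOBEC3G had at most 7 counts in any library, and FBXO25, COX7C and C22orf46 were not called (adjusted p = 0.08, 0.254 and 0.148, edgeR). The likeness was looser for APOBEC3A, with ATP5G3 (0.935), CENPP (0.910) and WDR90 (0.909), and for APOBEC3D, with CRMP1 (0.908), IFITM2 (0.894) and CSAD (0.892). APOBEC3A had at most 11 counts and APOBEC3D at most 35 in any A549 library, so their r values rest partly on low counts. APOBEC3H was most like IFITM2 (0.963), an interferon-inducible antiviral gene, ETV4 (0.962) and AK8 (0.962), on counts near 0 in most libraries.

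**Figure D5:**
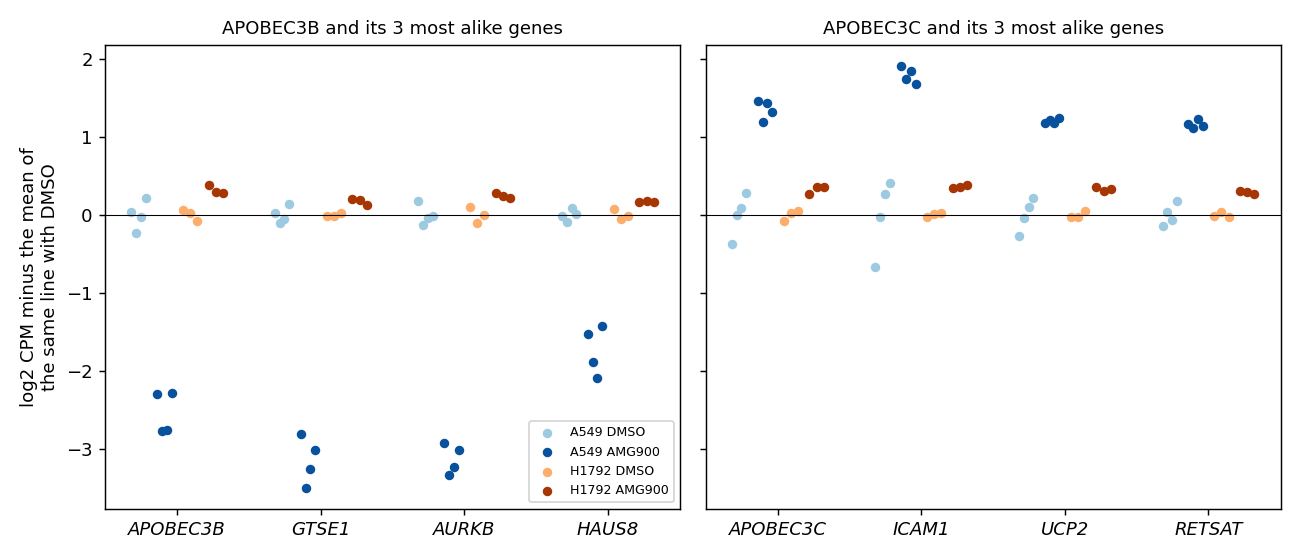
Log2 CPM of APOBEC3B (left) and APOBEC3C (right) and of the 3 genes most like each in every library, as the difference from the mean of the same line with DMSO. Points are libraries, coloured by line and treatment. The genes of the left panel lie far below 0 in A549 with AMG900 and slightly above it in H1792 with AMG900, and those of the right panel lie above 0 in both.

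The log2 changes of all genes went with the GC content of their transcripts in both lines (Spearman's rho 0.501 across genes in A549 and 0.486 in H1792, genes not being independent replicates). The members lie close together and near the medians of 49.3 and 49.5%, from 48.3% in APOBEC3G to 51.8% in APOBEC3D. With a correction for GC content the same number of members was called in every comparison, and APOBEC3B stood at log2 -2.65 in A549 and 0.27 in H1792.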

How the data were processed

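Total RNA of A549 and H1792 cultures was sequenced on the NextSeq platform. The authors deposited raw read counts per gene symbol, 1 table per line, without normalization. The submitters' processing notes name STAR, HTSeq and hg19/GRCh37. Their versions, the annotation, and the strand and multi-mapping settings are not given in the sources used here, and they bear on members that share sequence. In the H1792 table, 28 entries that bear dates in place of symbols (0.101 to 0.117% of counts) were left out. Groups came from the sample labels, and all 14 libraries were used. Replicates of a group differed by more than counting noise (chi-square per gene 3.31 to 48.3 over 18 pairs).

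Counts were tested in R 4.3.3 with edgeR 4.0.16 (filterByExpr, TMM, glmQLFit and glmQLFTest) across all genes, with Benjamini-Hochberg adjustment and an FDR of 0.01, within each line and, for the interaction and the comparison of lines with DMSO, over all libraries. Same-numbered libraries did not deviate together, so no block was used. SE is the log2 fold change divided by the root of the F statistic. CPM values were scaled within a line, with some exceptions. CPM per kb, the summed marker levels and the values used to find the most alike genes were scaled over all libraries. Transcript lengths, GC content, positions and sequences came from GENCODE on GRCh37 (1 transcript per gene), where 22669 of 26760 names matched. The printed motif is the proline-cysteine and second cysteine codons downstream of a histidine and glutamate codon. Members and lists were chosen with earlier results of these data known. Genes named are all members, related deaminases, all cluster neighbours, a fixed set of regulators, the called genes of each list with the largest changes in each line, and the 3 genes most like each member. Some genes of the lists are not reported here by name but are counted in their lists. Alternatives were DESeq2 1.42.0, its size factors in edgeR, scaling by total counts, no filter, at least 10 counts in every library, an FDR of 0.05, a replicate block, a GC spline with 5 degrees of freedom, and leaving out each library. In simulated data with 200 genes changed 2-fold, 66.5% were recovered in the A549 comparison (13010 genes), 69% in the H1792 comparison (14831 genes) and 53.5% in the interaction (14435 genes). False calls were 0.746% of those made in the A549 comparison, 2.13% in the H1792 comparison and 0% in the interaction, at an FDR of 0.01. Depth ranged from 4254644 to 79902934 counts, and counting error limits members with few counts. Zero-count limits of 3 counts cover counting error only.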

Additional observations from a re-analysis of the deposited data

Results flagged for a closer look

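APOBEC3A was at 2.58 CPM in A549 DMSO replicate 1, far above the other A549 DMSO libraries, which lay between 0.374 and 0.546 CPM. The gap to the nearest library was 0.922 of the group's range, past Dixon's critical value of 0.829 for 4 libraries. That library was the smallest of all, with 11 APOBEC3A counts, and 14 groups of A549 libraries were examined in this way, of which 1 stood out, while chance gives about 1 in 20. Without it, the difference in APOBEC3A between the lines with DMSO was log2 2.65 instead of 2.03.

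The change with AMG900 differed between the lines by the interaction test for APOBEC3B (log2 2.88, H1792 minus A549), for APOBEC3C (log2 -0.98) and for APOBEC3F (log2 -1.24). APOBEC3B moved in opposite directions in the lines, APOBEC3C rose in both, and APOBEC3F rose in A549 and was not called in H1792.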

How the results depend on the processing

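Of the log2 changes of single members under the alternatives, 421 kept their direction and their side of the threshold, 10 lost the call and 3 changed sign. APOBEC3D in H1792, not called, went from log2 -0.02 to 0.13 (range -0.22 to 0.13 over libraries left out) without H1792 AMG900 replicate 2 and to 0.01 without H1792 AMG900 replicate 3, and the interaction for APOBEC3G, not called either, went from log2 0.62 to -0.14 without A549 DMSO replicate 4 (range -0.14 to 0.88). Leaving out 1 library at a time, 3 to 4 members were called in A549, 2 to 3 in H1792, 3 in the interaction throughout and 5 to 6 between the lines with DMSO. The member called in addition in A549 was APOBEC3H, which was tested only when some libraries were left out or no filter was used. It had 0 to 5 counts with DMSO and 5 to 18 with AMG900. Where the filter was used, APOBEC3H passed it only through the AMG900 libraries, in which it is high, so the added call supports nothing. Without the filter, its call rests on the same low counts. With at least 10 counts in every library, 3 members were tested and 3 called between the lines with DMSO, against 6. Most genes were called under that setting too, 3882 higher and 3421 lower of 10666. With the replicate number as a block, 3 members were called in A549, 3 in H1792 and 3 in the interaction, as without it. Over all genes, that block gave 1923 higher and 1984 lower of 13174 in A549, and 2170 and 2618 of 15017 in H1792. For the interaction it gave 604 genes above 0 and 984 below 0 of 14769. Same-numbered libraries correlated between -0.0604 and 0.0425, and the block cannot be added to the comparison of lines. Without the filter, APOBEC3H between the lines with DMSO was at adjusted p = 0.0104 by edgeR. Over all genes, the interaction gave 793 genes with a difference (H1792 minus A549) above 0 by edgeR and 1416 by DESeq2, and the H1792 comparison gave 2439 higher genes with all libraries and 1382 without H1792 AMG900 replicate 1, 1464 without replicate 2 and 1524 without H1792 DMSO replicate 3. Lower genes went from 2827 to 1853 without H1792 AMG900 replicate 1. Scaling by total counts moved the median log2 difference between the lines with DMSO from 0.04 to -0.07. The causes were not tested. Low counts of APOBEC3A, APOBEC3D, APOBEC3G and APOBEC3H in A549 limit what could be called there.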
